A study of Mus musculus with 6 samples.

Results

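The genes described here are 10 receptors and ligands through which phagocytes recognise dying cells and modified lipoproteins: Mertk, Axl, Gas6, Stab1, Cd163, Msr1, Marco, Scarb1, Olr1 and Timd4. They were chosen by symbol, by a rule that used no measured value, although earlier results of these data were known. Each matched 1 Ensembl ID among the 56748 IDs counted. Their mRNA was measured by RNA-seq in bone marrow-derived dendritic cells (BMDCs) from mice, to compare WT cells with cells lacking Nfkb2, the gene for the p100 precursor of the NF-κB subunit p52. The 6 libraries are 3 from WT mice and 3 from mice with a global Nfkb2-/- deletion, so that every cell type of the culture carried the deletion. In both genotypes, femur and tibia marrow was grown with GM-CSF, and then with GM-CSF and IL-4 together, and polyadenylated RNA was taken from cells given no further stimulus. The study describes the libraries of a genotype as independent biological replicates. The sex and age of the donor mice, and whether each library came from its own animal, were not given in the sources used here, and the p-values measure the spread between these libraries.

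Efferocytosis is the engulfment of dying cells. Mertk and Axl are receptor tyrosine kinases of the TAM family, named after Tyro3, Axl and Mertk. They bind phosphatidylserine on a dying cell through bridging proteins, Gas6 for both and protein S for Mertk. Timd4 and Stab1 bind phosphatidylserine directly. Cd163 takes up haemoglobin bound to haptoglobin, Msr1 and Marco are class A scavenger receptors for modified lipoproteins and microbes, Scarb1 is the HDL receptor, and Olr1 binds oxidised LDL. Mertk, Cd163, Msr1, Marco and Timd4 are better known from tissue macrophages, and marrow grown with GM-CSF is known to give macrophage-like cells beside dendritic cells. For its own protocol, with IL-4, the study describes cultures mostly of CD11c+ cells and free of macrophage-like cells high in CD115, the protein that Csf1r encodes.

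The 3 TAM receptors are shown with their upstream sequence, since they differed from one another in these data: the genotypes separated in opposite directions for Axl and Tyro3 and overlapped for Mertk. The sequences are the 250 bases before the RefSeq start site, 5′ to 3′ on the strand of the gene, in build GRCm38.p6. They lie at chr7:25788734-25788983 on the minus strand for Axl, at chr2:128698665-128698914 on the plus strand for Mertk and at chr2:119799264-119799513 on the plus strand for Tyro3. Capitals mark a match to the κB consensus, the motif bound by NF-κB dimers.
Axl: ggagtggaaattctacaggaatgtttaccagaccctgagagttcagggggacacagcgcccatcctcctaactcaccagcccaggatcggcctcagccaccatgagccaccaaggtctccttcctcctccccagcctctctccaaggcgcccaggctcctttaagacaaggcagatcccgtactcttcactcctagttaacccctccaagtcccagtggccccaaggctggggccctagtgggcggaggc
Mertk: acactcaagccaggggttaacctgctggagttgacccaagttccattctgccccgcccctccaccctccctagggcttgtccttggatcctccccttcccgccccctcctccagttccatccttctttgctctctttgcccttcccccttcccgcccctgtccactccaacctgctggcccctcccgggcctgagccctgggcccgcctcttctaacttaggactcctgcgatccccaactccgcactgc
Tyro3: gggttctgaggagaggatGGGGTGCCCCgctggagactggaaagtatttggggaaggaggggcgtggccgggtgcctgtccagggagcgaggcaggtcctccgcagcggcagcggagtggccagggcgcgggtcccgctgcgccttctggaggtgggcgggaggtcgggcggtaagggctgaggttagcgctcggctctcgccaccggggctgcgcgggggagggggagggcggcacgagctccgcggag
The κB consensus was searched for on both strands in windows that ran from 250 bases before to 50 bases after each start site. It matched in 4.51% of the 32851 windows. Windows were given for 8 of the 10 genes, all but Msr1 and Scarb1, and 0 of these 8 held a match. The Tyro3 window held 1, on the strand opposite to the gene, where it reads GGGGCACCCC. On the strand of the gene, as printed above, the same bases read GGGGTGCCCC and began 232 bases before the start site. Elmo1, a pathway gene with a higher level in Nfkb2-/- BMDCs (log2 fold change 1.19), also held 1 match in a window and 0 in its other window. Tyro3 had a lower level (log2 fold change -1.84). Of the 60 pathway genes described further on, 41 had a window and 5 held a match in any of their windows. These counts are per gene and a gene can have several windows, whereas the 4.51% is per window. The share of matches per gene over all genes was not computed. A match is a run of letters and was not tested for binding.

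The libraries held 29863927 to 55623068 counts, and 1 count corresponded to 0.0187 to 0.0344 CPM, the unit used for TMM-normalized counts scaled to library size. Nfkb2 itself was at 215, 154 and 355 CPM in replicates 1, 2 and 3 of WT, and in those of Nfkb2-/- BMDCs at 44.8, 32.3 and 32.6 CPM (log2 fold change -2.72, SE 0.33, adjusted p = 0.0307 by edgeR's quasi-likelihood test). Reads on the rest of a deleted gene can remain, and the deleted part was not examined. The dendritic cell genes Cd74 and H2-Aa were abundant in every library, at 1870 to 3691 and at 1131 to 2058 CPM, whereas Clec9a and Xcr1 averaged 2.62 and 0.25 CPM. 2 libraries stood apart, WT replicate 3 on the second principal component (29.1% of the variance) and Nfkb2-/- replicate 1 on the first (45.2%), which also had counts on 47952 IDs against 27692 to 33841 in the others. In WT replicate 3 a list of 12 macrophage markers, none of them among the 10 genes, summed to 194 CPM. Elsewhere the sums were 1299.8 and 1273.9 CPM for WT and 864, 848 and 799.8 CPM in the Nfkb2-/- replicates. All 9 markers of this list that had enough counts were lowest in WT replicate 3. The most abundant were Gpnmb, at 130 CPM there and 454 to 866 CPM elsewhere, and Csf1r, at 37.2 and 115 to 250 CPM, while Vsig4 was at or under 3 counts in every library. Of the mature dendritic cell markers, which include Ccl22 and Ccr7, 0 of 7 were lowest in WT replicate 3, and their sum was highest there at 16642 CPM against 7503 to 11626 CPM.

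Of the 10 genes, 9 had the 50 counts over the 6 libraries needed for testing, and Timd4 did not. By edgeR's quasi-likelihood test, 0 of the 9 were called different between the genotypes, that is with an adjusted p under 0.05 and a fold change over 1.2. Over all 21849 genes tested, 1.14% were called, and 0.682% in the lower direction. DESeq2 also called 0 of the 9, beside 8.65% of all genes, and limma voom 0 of the 9, beside 2.23%. With every gene that had a count, 4 of 10 were called by edgeR, Axl, Stab1, Cd163 and Marco, beside 3.50% of the genes then tested. In that fit the median log2 fold change over all genes was 0.60, against 0.08 with the filter of 50 counts. The SE of Stab1 was 0.30 there, against 0.87 with the filter. At an unadjusted p under 0.05 edgeR gave 2 of 9, Axl with a higher and Marco with a lower level in Nfkb2-/- BMDCs, beside 17.1% of all genes. The values of the genotypes did not overlap in 1 of the 9, Axl, beside 24.7% of all genes, and beside 12.7% in the same, higher direction. The median log2 fold change of the 9 was 0.11, and that of all genes 0.08. In bulk RNA, fewer cells of a type and less of an mRNA per cell cannot be told apart.

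**Figure D1:**
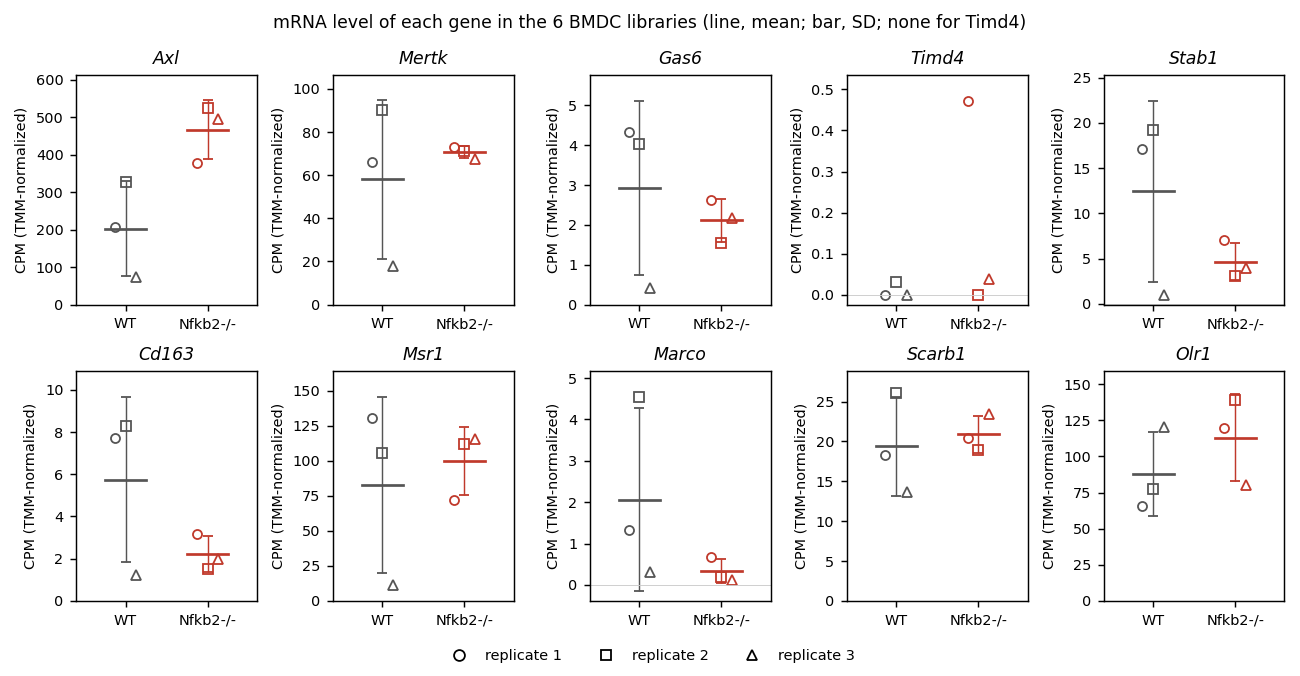
Level of each of the 10 genes in every library, in TMM-normalized CPM on linear axes from 0, with a symbol for each WT and Nfkb2-/- replicate, a line at the mean of each genotype and a bar for its SD (neither for Timd4). Axl is the gene whose genotypes do not overlap, and WT replicate 3 is the lowest library for Mertk, Axl, Gas6, Stab1, Cd163, Msr1 and Scarb1.

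Axl (ENSMUSG00000002602, chr7:25757273-25788705, minus strand, GRCm38) was the most abundant of the 10 per length and the one with separated genotypes. Its level was 208, 326 and 74.3 CPM in WT replicates 1 to 3 and 379, 526 and 497 CPM in the Nfkb2-/- replicates. Every Nfkb2-/- library lay above every WT library, with means of 467 ± 78.1 CPM and 203 ± 126 CPM (SD, n = 3 each). The log2 fold change was 1.2 (SE 0.47, 95% confidence interval 0.09 to 2.32), with an unadjusted p of 0.0376 and an adjusted p of 0.255 by edgeR. Without WT replicate 3, in which the macrophage markers were low, the log2 fold change of Axl was 0.81 (SE 0.25, adjusted p = 0.191). Without WT replicate 2, the highest of the WT libraries, it was 1.72 (adjusted p = 0.0885), when 0 of the 9 genes and 5.87% of all genes were called. Over all 15 alternatives it ran from 0.81 to 1.72, with adjusted p from 0.0196 to 0.513. The lowest adjusted p came from the fit with every gene that had a count.

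Mertk (ENSMUSG00000014361, chr2:128698956-128802894, plus strand), the TAM receptor most closely tied to clearance by macrophages, did not separate the genotypes. It stood at 66.1, 90.2 and 17.8 CPM in WT and at 73.0, 71.1 and 67.6 CPM in Nfkb2-/- BMDCs. The Nfkb2-/- values lay inside the WT range, and the log2 fold change of 0.28 (SE 0.50, adjusted p = 0.809) turned to -0.14 without WT replicate 3. Its 95% interval of -0.88 to 1.45 still holds changes of either sign.

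Tyro3, the remaining TAM receptor, belongs to the pathway genes compared with the 10. It fell from 11.8, 8.80 and 12.5 CPM in WT to 4.28, 2.27 and 2.68 CPM in Nfkb2-/- BMDCs (log2 fold change -1.84, SE 0.29, adjusted p = 0.0420 by edgeR). All 3 Nfkb2-/- libraries lay below the 3 WT libraries, and WT replicate 3, the lowest for Axl and Mertk, was the highest for Tyro3. The adjusted p of Tyro3 rose above 0.05 when any library but WT replicate 2 was left out (0.0590 without WT replicate 3 and 0.0816 to 0.2 without WT replicate 1 or a Nfkb2-/- replicate), while the log2 fold change stayed between -2.16 and -1.71. Per kilobase of exon, Axl averaged 40.3 ± 25 CPM in WT and 92.8 ± 15.5 CPM in Nfkb2-/- BMDCs, Mertk 13.4 ± 8.51 and 16.3 ± 0.634 CPM, and Tyro3 1.78 ± 0.317 and 0.497 ± 0.172 CPM (SD, n = 3 each).

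The balance of Axl and Mertk within a library does not depend on how libraries are scaled. There were 3.15, 3.62 and 4.18 Axl counts for each Mertk count in WT and 5.19, 7.40 and 7.35 in Nfkb2-/- BMDCs. The lowest Nfkb2-/- library exceeded the highest WT library, and WT replicate 3, low in both genes, had the highest ratio of the WT libraries. The mean log2 ratio was 1.86 ± 0.20 in WT and 2.71 ± 0.29 in Nfkb2-/- BMDCs (SD, n = 3 each). The difference of 0.85 had p = 0.1 in a two-sided exact permutation test, the smallest that 3 against 3 libraries can give. Leaving out a library gave differences from 0.75 to 1.02.

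**Figure D2:**
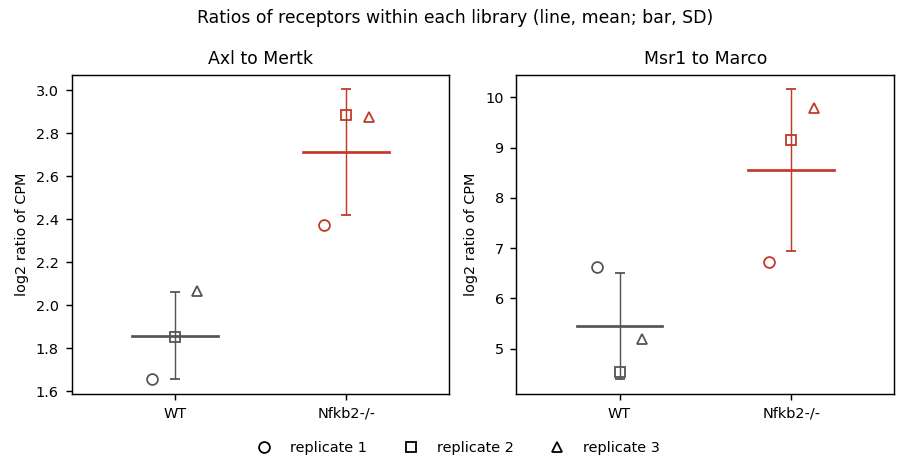
Log2 ratio of Axl to Mertk and of Msr1 to Marco within each library, for WT and Nfkb2-/- BMDCs, with a symbol for each library, a line at the mean and a bar for the SD. For both ratios the 3 Nfkb2-/- libraries lie above the 3 WT libraries, and for Msr1 to Marco the nearest pair is WT replicate 1 at 6.62 and Nfkb2-/- replicate 1 at 6.73.

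Gas6 (ENSMUSG00000031451, chr8:13465374-13494490, minus strand), the ligand of the TAM receptors, was present at a few CPM. It measured 4.34, 4.03 and 0.413 CPM in WT and 2.63, 1.55 and 2.17 CPM in Nfkb2-/- BMDCs. WT replicates 1 and 2 lay above and WT replicate 3 below all Nfkb2-/- libraries, and the log2 fold change was -0.47 (SE 0.71, adjusted p = 0.774). Without WT replicate 3 it was -0.98 (SE 0.29, adjusted p = 0.174). The Gas6 exons share 34 bases, 1.33% of their length, with the gene Tmem255b on the opposite strand, and whether the counting used strand was not given in the sources used here. Pros1, which encodes protein S, the other TAM ligand, stood at 22.8, 25.8 and 8.12 CPM in WT and at 25.4, 37.1 and 28 CPM in Nfkb2-/- BMDCs (log2 fold change 0.67, SE 0.40, adjusted p = 0.451), and was named after its values were seen.

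Stab1 and Cd163 had a like pattern, with WT replicates 1 and 2 above the Nfkb2-/- libraries and WT replicate 3 below them. Stab1 (ENSMUSG00000042286, chr14:31139013-31168641, minus strand), or stabilin-1, was at 17.1, 19.2 and 0.998 CPM in WT and at 7.03, 3.03 and 3.99 CPM in Nfkb2-/- BMDCs. Cd163 (ENSMUSG00000008845, chr6:124304656-124330527, plus strand) was at 7.73, 8.28 and 1.24 CPM in WT and at 3.16, 1.52 and 1.98 CPM in Nfkb2-/- BMDCs. In both genes the genotypes overlapped through WT replicate 3 and through no other library. The log2 fold changes were -1.41 (SE 0.87, adjusted p = 0.463) for Stab1 and -1.38 (SE 0.65, adjusted p = 0.345) for Cd163. Without WT replicate 3 they were -1.95 (SE 0.34, adjusted p = 0.0589) and -1.85 (SE 0.32, adjusted p = 0.0573), so that neither was called, beside 1.27% of all genes. Without both libraries that stood apart, a choice made after the data were seen, Stab1 was called at -2.38 (adjusted p = 0.0216) and Cd163 at -2.20 (adjusted p = 0.0260), beside 4.85% of all genes tested in that comparison. Over all alternatives the adjusted p ran from 2.6e-05 to 0.795 for Stab1 and from 7.6e-04 to 0.637 for Cd163. For both the lowest came from the fit with every gene that had a count. Stab1 shares 112 exonic bases, 1.09% of its length, with Nt5dc2 on the opposite strand.

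Msr1 and Marco, both class A scavenger receptors, differed in level and in pattern. Msr1 (ENSMUSG00000025044, chr8:39581685-39642673, minus strand) stood at 130, 105 and 11.4 CPM in WT and at 72.1, 112 and 115 CPM in Nfkb2-/- BMDCs. The Nfkb2-/- values lay within the WT range, and the log2 fold change of 0.28 (SE 0.72, adjusted p = 0.877) turned to -0.24 without WT replicate 3. Marco (ENSMUSG00000026390, chr1:120474538-120505024, minus strand) was low in most libraries, with 56, 148 and 9 counts in WT and 23, 6 and 7 counts in Nfkb2-/- BMDCs. These counts correspond to 1.33, 4.55 and 0.310 CPM in WT and to 0.679, 0.198 and 0.131 CPM in Nfkb2-/- BMDCs. WT replicates 1 and 2 lay above all Nfkb2-/- libraries, but WT replicate 3 lay below Nfkb2-/- replicate 1. The log2 fold change of Marco was -2.63 (SE 1.04, 95% confidence interval -5.06 to -0.19, adjusted p = 0.256 by edgeR), and WT replicate 2 set much of its size, since the value was -1.29 without that library. It was -3.14 (adjusted p = 0.145) without WT replicate 3, -3.67 (adjusted p = 0.185) without Nfkb2-/- replicate 1 and -4.19 (adjusted p = 0.0466) without both. Over all alternatives the adjusted p of Marco ran from 3.1e-04, in the fit with every gene that had a count, to 0.578.

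The ratio of Msr1 to Marco gave 98.1, 23.2 and 36.7 Msr1 counts for each Marco count in WT and 106, 567 and 880 in Nfkb2-/- BMDCs. All Nfkb2-/- libraries lay above all WT libraries, although Nfkb2-/- replicate 1 was close to WT replicate 1. On the log2 scale the means were 5.45 ± 1.06 in WT and 8.55 ± 1.61 in Nfkb2-/- BMDCs (SD, n = 3 each), and the difference of 3.10 had the smallest possible p of 0.1 in the two-sided exact permutation test. It ran from 2.49 to 4.02 when a library was left out.

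Scarb1 and Olr1, which bind lipoproteins, varied least with WT replicate 3. Scarb1 (ENSMUSG00000037936, chr5:125277087-125341094, minus strand) was at 18.4, 26.1 and 13.7 CPM in WT and at 20.4, 18.9 and 23.4 CPM in Nfkb2-/- BMDCs. Its log2 fold change of 0.11 (SE 0.25, adjusted p = 0.854) turned to -0.08 without WT replicate 3. Olr1 (ENSMUSG00000030162, chr6:129485244-129507165, minus strand), also called LOX-1, was at 65.4, 77.2 and 121 CPM in WT and at 120, 139 and 80.1 CPM in Nfkb2-/- BMDCs. It was the only one of the 9 that was highest among the WT libraries in WT replicate 3, and its log2 fold change was 0.37 (SE 0.29, adjusted p = 0.563). Without that library it was 0.67 (adjusted p = 0.261). The genotypes overlapped for both genes.

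Timd4 (ENSMUSG00000055546, chr11:46810800-46844332, plus strand), a phosphatidylserine receptor of resident macrophages, was at or under the floor of 3 counts in 5 of the 6 libraries. It had 0, 1 and 0 counts in WT and 16, 0 and 2 counts in Nfkb2-/- BMDCs. The 16 counts came from Nfkb2-/- replicate 1, the library with counts on the most IDs, and no fold change or test is given. At this depth 3 counts correspond to 0.0561 to 0.103 CPM per library, and this limit covers counting error only.

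**Figure D3:**
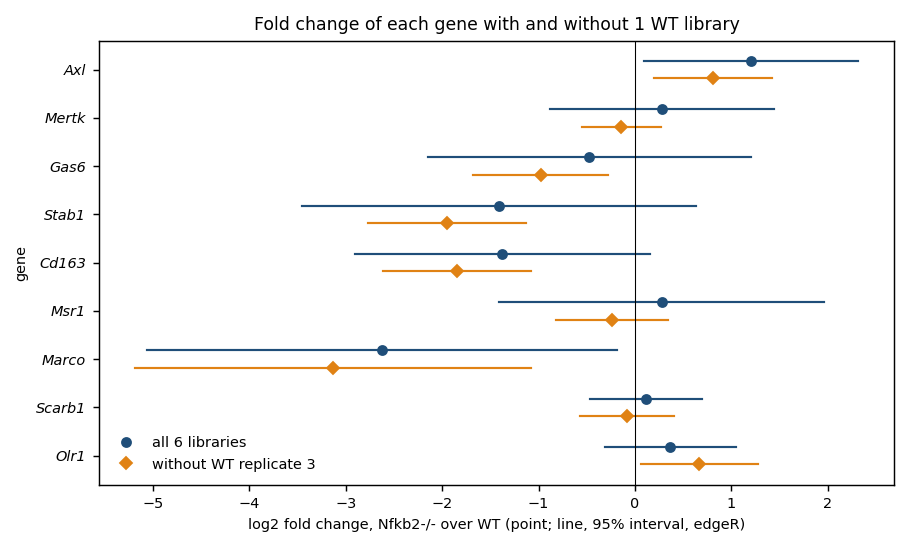
Log2 fold change of Nfkb2-/- over WT BMDCs for the 9 tested genes with its 95% confidence interval from edgeR, with all 6 libraries and with WT replicate 3 left out. With all libraries the intervals of Axl and Marco alone leave out 0, and leaving out WT replicate 3 moves Stab1 from -1.41 to -1.95 and Mertk from 0.28 to -0.14.

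Levels were compared between the 10 genes only per kilobase of exon. By the mean over the 6 libraries the order was Axl, Olr1, Mertk, Msr1, Scarb1, Gas6, Stab1, Cd163, Marco and Timd4. Axl was the highest in 5 libraries, and in WT replicate 3 Olr1 was higher, at 33.8 against 14.8 CPM per kilobase. Olr1 was above Mertk, Msr1 above Scarb1, and Scarb1 above Gas6 in 6 of 6 libraries. Mertk and Msr1 changed places in 3 of 6 libraries and do not differ beyond their spread, with 13.4 ± 8.51 and 13 ± 9.89 CPM per kilobase in WT (SD, n = 3). Gas6, Stab1, Cd163 and Marco, at 1.15, 1.21, 1.05 and 1.07 CPM per kilobase on average in WT, each stood above the next in 5 of 6 libraries.

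In WT replicate 3, 7 of the 9 tested genes were at their lowest, all but Marco and Olr1, beside 25% of all genes. Against the mean of the other two WT libraries, Stab1 was 18.2-fold, Msr1 10.4-fold, Gas6 10.1-fold, Marco 9.49-fold and Cd163 6.46-fold lower there. Mertk was 4.40-fold, Axl 3.6-fold and Scarb1 1.62-fold lower, whereas Olr1 was 1.69-fold higher. The macrophage markers Adgre1, which encodes F4/80, and Csf1r were 7.31-fold and 6.56-fold lower in the same library, and the part of such cells in the receptor levels was not tested.

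To set the receptors beside these markers, each level was also given per 1000 CPM of the summed macrophage markers. This scale was chosen after the values were seen and used without a test. Gpnmb alone gave most of the sum in every library, so the scale depends mainly on this gene. It gave 866 of 1299.8 CPM in WT replicate 1, 130 of 194 CPM in WT replicate 3 and 454 of 799.8 CPM in Nfkb2-/- replicate 3. On this scale Cd163 stood at 5.95, 6.50 and 6.39 in WT and at 3.66, 1.79 and 2.48 in Nfkb2-/- BMDCs. WT replicate 3 then lay between the other two WT libraries, and the genotypes no longer overlapped. On this scale 3 of the 9 tested genes, Cd163, Axl and Marco, did not overlap, beside 6.39% of all genes (3.95% higher and 2.45% lower in Nfkb2-/- BMDCs). Axl stood at 160, 256 and 383 in WT and at 438, 620 and 621 in Nfkb2-/- BMDCs, again without overlap. Marco was at 1.02, 3.57 and 1.6 in WT and at 0.786, 0.233 and 0.164 in Nfkb2-/- BMDCs. Mertk, at 50.8, 70.8 and 91.5 in WT and at 84.5, 83.8 and 84.5 in Nfkb2-/- BMDCs, overlapped on this scale too, as did Gas6, Stab1, Msr1, Scarb1 and Olr1.

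**Figure D4:**
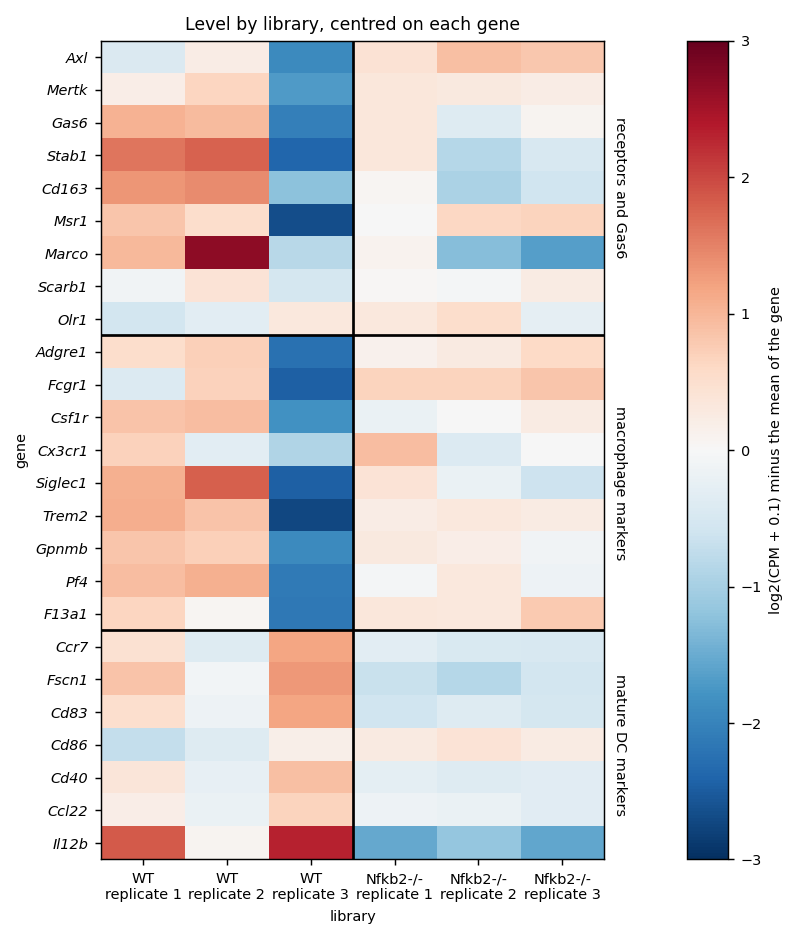
Level of the 9 tested genes, of the tested macrophage markers and of the mature dendritic cell markers (rows) in each library (columns), in colour as log2(CPM + 0.1) minus the mean of the gene over the 6 libraries, red for higher and blue for lower. WT replicate 3 is the lowest library for 7 of the 9 genes and for all 9 macrophage markers, and for 0 of the 7 mature dendritic cell markers.

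The receptors act with other genes, which were taken as 6 lists by role: bridging molecules, other receptors for dying cells, engulfment machinery, receptor sheddases with the CD47-SIRPα brake, other scavenger receptors, and transcription factors known to act on such genes. Of these 60 genes 57 were tested and 2 were called, or 3.51% beside 1.14% of all genes. Besides Tyro3, the other one was Elmo1, an adaptor that links engulfment receptors to Rac activation. Elmo1 rose from 93.5, 121 and 79.6 CPM in WT to 220, 233 and 218 CPM in Nfkb2-/- BMDCs (log2 fold change 1.19, SE 0.18, adjusted p = 0.0420 by edgeR). All Nfkb2-/- libraries lay above the WT libraries. Its log2 fold change stayed between 1.07 and 1.37 when a library was left out, but the adjusted p was 0.0898 to 0.217 without WT replicate 1 or any of the Nfkb2-/- replicates. The genotypes did not overlap in 16 of the 57 genes, 7 higher and 9 lower in Nfkb2-/- BMDCs, beside 24.7% of all genes.

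Among the bridging molecules 0 of 8 were called, beside 1.14% of all genes. An unadjusted p under 0.05 was found in 3 of 8, beside 17.1% of all genes. Thbs1, or thrombospondin 1, which joins dying cells to CD36 and an integrin, was at 1330, 962 and 504 CPM in WT and at 156, 222 and 282 CPM in Nfkb2-/- BMDCs. The log2 fold change of -2.08 (SE 0.39) had an adjusted p of 0.0568 by edgeR, and of 4.6e-06 by DESeq2 and 0.0377 by limma voom, which called it. Without WT replicate 3 edgeR called it too, at -2.38 (adjusted p = 0.0328). Anxa1 was at 482, 387 and 112 CPM in WT and at 385, 626 and 640 CPM in Nfkb2-/- BMDCs (adjusted p = 0.489).

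Among the other receptors for dying cells 1 of 10 was called, Tyro3, beside 1.14% of all genes, and 3 had an unadjusted p under 0.05, beside 17.1%. Itgav, the integrin subunit that pairs with Itgb3 and Itgb5, was at 191 to 243 CPM in WT and at 167 to 272 CPM in Nfkb2-/- BMDCs (adjusted p = 0.838). Its 2 partners, given after their values were seen, had log2 fold changes of 0.98 for Itgb3 and -0.84 for Itgb5. Neither was called by edgeR (adjusted p = 0.126 and 0.276), whereas DESeq2 called Itgb3 (adjusted p = 0.0198). Lrp1, a large endocytic receptor, stood at 434, 354 and 85.1 CPM in WT and at 147, 168 and 165 CPM in Nfkb2-/- BMDCs (adjusted p = 0.446), again with WT replicate 3 below all others. Of the engulfment genes 1 of 11 was called, Elmo1, and Rac1 and Dock2, the most abundant, had log2 fold changes of 0.14 and 0.11 (adjusted p = 0.675 and 0.785). In this list 5 of 11 had an unadjusted p under 0.05, beside 17.1% of all genes. Of these, Elmo1 and Ptk2 were higher and Dock1, Rhog and Abca1 lower in Nfkb2-/- BMDCs. The genotypes did not overlap in 7 of 11, beside 24.7% of all genes. The log2 fold changes that were not called were 0.56 for Ptk2, -0.50 for Dock1, -0.79 for Rhog and -0.69 for Abca1, which encodes a cholesterol exporter (adjusted p from 0.1 to 0.139). These genes were named after their values were seen.

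Of the other scavenger receptors 0 of 15 were called, beside 1.14% of all genes, and 4 had an unadjusted p under 0.05, beside 17.1%. Cd36, a class B scavenger receptor for oxidised LDL and dying cells, was at 301, 305 and 73.9 CPM in WT and at 929, 1258 and 1007 CPM in Nfkb2-/- BMDCs. All Nfkb2-/- libraries lay far above the WT libraries (log2 fold change 2.23, SE 0.51, adjusted p = 0.0908 by edgeR), and edgeR called Cd36 without WT replicate 3, at 1.82 (adjusted p = 0.0261), and DESeq2 with all libraries (adjusted p = 1.2e-04). Cxcl16, a scavenger receptor and chemokine, was at 489, 263 and 611 CPM in WT and at 185, 188 and 188 CPM in Nfkb2-/- BMDCs (log2 fold change -1.28, SE 0.29, adjusted p = 0.0929). Of the sheddase and brake genes 0 of 4 were called and 0 had an unadjusted p under 0.05, with log2 fold changes of -0.46 for Cd47 and -0.39 for Sirpa. Of the transcription factors 0 of 9 were called, 3 at an unadjusted p under 0.05 (Spi1 higher, Maf and Rxra lower in Nfkb2-/- BMDCs). The log2 fold changes were 0.37 for Spi1 and -0.18 for Nr3c1 (adjusted p = 0.232 and 0.641), and -0.64 for Rxra (adjusted p = 0.266), which with Maf was named after its values were seen. Maf, a transcription factor of macrophages, was at 20.0, 25.1 and 1.24 CPM in WT and at 2.45, 2.83 and 2.54 CPM in Nfkb2-/- BMDCs, with WT replicate 3 below all others. Its log2 fold change was -2.57 (SE 0.88, adjusted p = 0.198 by edgeR), DESeq2 called it (adjusted p = 0.0135), and edgeR called it without WT replicate 3, at -3.11 (adjusted p = 0.0116).

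**Figure D5:**
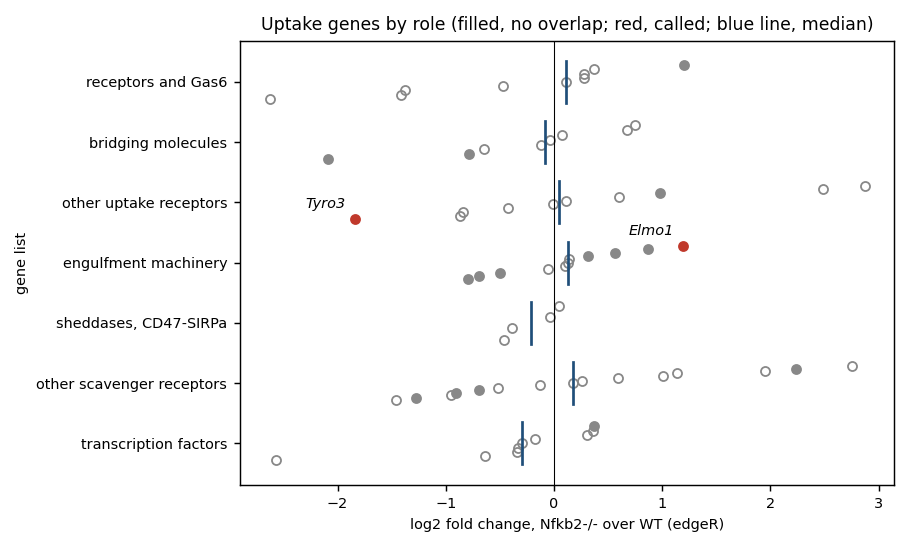
Log2 fold change of Nfkb2-/- over WT BMDCs for the 9 tested genes and for the tested genes of the 6 pathway lists, with a point for each gene, filled where the genotypes do not overlap and red where called, and a blue line at the median of each list. The called genes are Tyro3 at -1.84 and Elmo1 at 1.19, and the points of every list lie on both sides of 0.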

How the data were processed

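RNA-seq libraries of unstimulated BMDCs were grouped by the genotype in the sample labels, with 3 WT and 3 Nfkb2-/- libraries. The authors deposited whole-number counts of reads per Ensembl gene for each library, without normalization. HISAT2 and the build GRCm38 (mm10) are named in the submitters' processing notes. The counting tool, the annotation, versions and the use of strand were not given in the sources used here. A deposited table that joins the libraries differed in 0 values and was not used.

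Gene names and positions came from GENCODE M21, which named 52073 of 56748 IDs. IDs without a name held 1.01% to 1.75% of the counts and stayed out of library sizes and tests. The 6 libraries together had to give a gene 50 counts or more, which 22651 IDs did, and the 21849 of these with a name were tested. Analyses used R 4.3.3 with edgeR 4.0.16 (TMM, glmQLFit and glmQLFTest, no covariates, common dispersion 0.219), DESeq2 1.42.0 and limma 3.58.1. A gene was called at a Benjamini-Hochberg adjusted p under 0.05 over all genes tested and a fold change over 1.2. The standard error was the log2 fold change divided by the square root of F. Log2 CPM values for the principal components, the correlations between libraries and the likeness of patterns used a prior count of 2. The ratios within a library were taken from CPM without a prior count. The scripts were tested on simulated data. Ratios within a library were compared by two-sided exact permutation tests, which cannot go below 0.1 here. Counting error was small beside the spread between libraries except for Marco and Timd4. The κB consensus was searched for in RefSeq start site windows of build GRCm38.p6.

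Named genes were the 10 genes, Nfkb2, every called gene and the 2 most abundant of each pathway list, the 2 most abundant markers of each cell type list (1 list is not reported here), and for each of the 10 with a mean of at least 5 CPM the 2 genes with the most similar centred log2 CPM. Pros1, Adgre1, Vsig4, Clec9a and Xcr1, and the markers Itgax, Zbtb46, Il12b, Fscn1, Cd83, Cd40, Cd86, Cpa3 and Gata2, were named after their values were seen. The genes and lists were chosen with earlier results of these data known. The comparison was repeated with DESeq2 and with limma voom, with RLE or total-count scaling in place of TMM, with filterByExpr, with every gene that had a count, with a minimum of 10 counts in each library, with replicate number as a block, and with each library left out in turn. Leaving out WT replicate 3 and Nfkb2-/- replicate 1 together, and the scale per summed macrophage markers, were added after the data were seen.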

Additional observations from a re-analysis of the deposited data

How the results depend on the processing

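Of the receptors and Gas6, 4 of 10 were called (Axl, Stab1, Cd163 and Marco, beside 3.50% of all genes) with every gene that had a count, and 3 of 9 (Stab1, Cd163 and Marco, beside 4.85%) without WT replicate 3 and Nfkb2-/- replicate 1. Every other alternative called 0. With every gene that had a count, the median log2 fold change over all genes tested was 0.60. Mertk, Msr1 and Scarb1 turned in sign without WT replicate 3, to -0.14, -0.24 and -0.08, and without both libraries, to -0.19, -0.07 and -0.083. Marco had no value at 10 counts in every library, and Timd4 none with the filter of 50 counts. Over the fits with a library left out, the log2 fold change ran from -0.14 to 0.75 for Mertk, from -0.24 to 0.77 for Msr1 and from -0.08 to 0.38 for Scarb1. The other 6 genes kept their direction in every alternative that gave a value.

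Of the pathway genes, 2 were called in the comparison reported, 13 with DESeq2, 0 with total counts, 9 with no filter, 0 with the replicate block and 13 without both libraries. With a library left out, 0 were called without WT replicate 1 or any one of the Nfkb2-/- replicates, 8 without WT replicate 2 and 7 without WT replicate 3. The number tested was 57, but 60 with no filter and 53 without Nfkb2-/- replicate 1 or without both libraries. The shares of all genes called were 1.14% in the comparison reported, 8.65% with DESeq2, 3.50% with no filter, 5.87% without WT replicate 2, 1.27% without WT replicate 3 and 4.85% without both. Over all genes, 248 were called in the comparison reported, 1890 with DESeq2, 488 with limma voom, 397 with filterByExpr, 1625 with no filter, 459 at 10 counts in every library, 0 with the replicate block, from 0 to 1248 with a library left out (1248 without WT replicate 2) and 908 without both. With the replicate block, 3331 genes had an unadjusted p under 0.05. The cause of these shifts was not tested.

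Deviations of same-numbered libraries from their genotype means correlated at 0.262, 0.148 and 0.022. Those of differently numbered libraries correlated at -0.237 to 0.164. Whether replicate numbers pair the libraries was not tested. With the replicate number as a block, 0 of the 9 genes were called, and the log2 ratio differences stayed at 0.85 for Axl to Mertk and 3.10 for Msr1 to Marco, where the smallest p that sign flips of 3 pairs allow is 0.25. With 3 libraries per genotype and a wide spread among WT libraries, the intervals of all tested receptors and Gas6 but Scarb1 hold changes of more than 1 on the log2 scale. That of Olr1 passes 1 only narrowly, at 1.04. Counts of Marco and Timd4 were too few for firm values.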

Other observations

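Of the dendritic cell markers 1 of 11 was called, beside 1.14% of all genes, and 3 had an unadjusted p under 0.05, beside 17.1%. Of these 3, Itgax and Clec9a were higher and Zbtb46 lower in Nfkb2-/- BMDCs. The log2 fold changes not called were 1.40 for Clec9a and -0.54 for Zbtb46 (adjusted p = 0.113 and 0.192 by edgeR). Over the whole list 7 estimates were higher and 4 lower. The one called was Itgax, which encodes CD11c and rose from 160, 277 and 123.4 CPM in WT to 745, 769 and 716 CPM in Nfkb2-/- BMDCs (log2 fold change 1.99, SE 0.30, adjusted p = 0.0414 by edgeR). Of the mature dendritic cell markers 1 of 7 was called, Il12b, at a log2 fold change of -3.09 (SE 0.53, adjusted p = 0.0489 by edgeR). In this list 6 of 7 had an unadjusted p under 0.05, beside 17.1% of all genes, 5 lower and 1, Cd86, higher in Nfkb2-/- BMDCs. The genotypes did not overlap in 5 of 7, beside 24.7% of all genes. The log2 fold changes not called were -1.49 for Fscn1, -1.12 for Cd83, -0.97 for Ccr7, -0.75 for Cd40 and 0.58 for Cd86, with adjusted p from 0.0902 to 0.284. Ccl22 ran from 5357 to 10728 CPM and Ccr7 from 596 to 1897 CPM over the 6 libraries, both highest in WT replicate 3 and neither called. Of the macrophage markers 0 of 9 were called and 0 had an unadjusted p under 0.05, with 4 estimates higher and 5 lower in Nfkb2-/- BMDCs. With every gene that had a count, 2 of 12 were called, beside 3.50% of all genes. Without WT replicate 3 and Nfkb2-/- replicate 1, 3 of 9 were called, beside 4.85%. Gpnmb and Csf1r had the pattern of Stab1 and Cd163, with WT replicates 1 and 2 above and WT replicate 3 below all Nfkb2-/- libraries. The granulocyte and mast cell markers summed to 127 to 267 CPM, with S100a8 at 49.6 to 98.8 CPM and Kit at 37.2 to 50.5 CPM. In this list 1 of 11 was called, Cpa3, lower in Nfkb2-/- BMDCs, beside 1.14% of all genes. An unadjusted p under 0.05 was found in 3, beside 17.1% of all genes, 2 lower and 1, Gata2, higher in Nfkb2-/- BMDCs. The log2 fold change of Gata2 was 1.47 (adjusted p = 0.119 by edgeR), and that of Kit was 0.18. Stromal and endothelial markers, led by Col1a1 and Col1a2, summed to 1.03 to 54.6 CPM and were lowest in WT replicate 3. Of these 0 of 8 were called by edgeR and 0 had an unadjusted p under 0.05.

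The genes whose pattern over the 6 libraries was most like that of each receptor were found among 10645 genes that averaged 5 CPM or more, by the root mean square difference of centred log2 CPM. They were Tarsl2 and Myo7a for Mertk, at 0.103 and 0.120, and Gm2a and Arhgap6 for Axl, at 0.118 and 0.120. For Msr1 they were Mmp19 and Cd180, at 0.125 and 0.174. For Stab1 they were Siglec1, one of the macrophage markers, and Emp1, at 0.353 and 0.365, so that its nearest genes were less alike than those of the others. For Scarb1 they were Tex2 and A430110C17Rik, at 0.0694 and 0.0717, and for Olr1 Gm9844 and AC121821.1, at 0.139 and 0.149. The 6 points of each comparison share the libraries and their depth, and with so many genes compared some fall close without any link.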
